A study of Mus musculus with 15 samples.

Results

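Fpr1, Fpr2, C5ar1, C3ar1, Ltb4r1 and Ptafr encode receptors through which neutrophils sense formyl peptides, complement fragments and lipid mediators. They were chosen by gene symbol and are 6 of the 14801 genes in the deposited table. All 6 were present, and 5 passed the filter on low values (a log2 CPM, the log2 of reads scaled to library size, over 0 in 3 or more libraries); C3ar1 did not. The RNA came from 5 cell populations that had been isolated by flow cytometry out of the fresh bone marrow of healthy, untreated mice, with 3 libraries each. The progenitors were labelled CMP, the usual short form of common myeloid progenitor, and CD115plusGMP, where GMP usually stands for granulocyte-monocyte progenitor and CD115 is the M-CSF receptor. The others were labelled Neutrophil, PreNeut_Neutrophil and ProNeut_Neutrophil. The labels give neither the strain, age and genotype of the mice nor the gates behind PreNeut_Neutrophil and ProNeut_Neutrophil, which are shortened to PreNeut and ProNeut below. Whether replicates were separate animals is not stated, and p-values then reflect only the spread among these libraries, which may be technical.

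All 6 products are receptors with 7 transmembrane helices that couple to G proteins of the Gi class. Ligand binding releases the G protein beta-gamma subunits, which switch on phospholipase C and phosphoinositide 3-kinase gamma and so steer migration, granule release and the oxidative burst. G protein-coupled receptor kinases and arrestins then silence the receptor. Neutrophils acquire most of these receptors late in their maturation in the marrow, where formyl peptides and C5a act as signals near bacteria or damaged cells and leukotriene B4 relays the signal from neutrophil to neutrophil over longer distances.

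Fpr1 (Entrez identifier 14293) lies at chr17:17876471-17883940 on the minus strand of GRCm38 and Fpr2 (14289) at chr17:17887824-17893952 on the plus strand, in the GENCODE M21 annotation. The pair stands head to head, with 3884 bases between the starts. C5ar1 (12273) lies at chr7:16246743-16259540, C3ar1 (12267) at chr6:122847138-122856161, Ltb4r1 (16995) at chr14:55765962-55768494 and Ptafr (19204) at chr4:132564067-132582683. C5ar1 is next to C5ar2, with 2588 bases between the genes, and Ltb4r1 next to Ltb4r2, with 823. No exon of the 6 genes overlaps an exon of a gene on the opposite strand. Of the 50-base windows in the Fpr2 transcript, 31.5% also occur in Fpr1, Fpr3 or Gm5966, so its reads could be split between copies in a way the sources do not describe; the share was 1.64% for Ptafr, 0.0784% for Fpr1 and 0 for C5ar1, C3ar1 and Ltb4r1.

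The 250 bases before the RefSeq start (GRCm38.p6) of 3 of the genes are printed here, 5′ to 3′ on the strand of the gene, because Fpr1 and Fpr2 had the largest differences between ProNeut and PreNeut and Ltb4r1 the smallest. They are chr17:17883940-17884189 on the minus strand, chr17:17887574-17887823 on the plus strand and chr14:55765712-55765961 on the plus strand. Capitals mark matches to 3 short motifs, searched on both strands: GAGGAA (the purine box of PU.1, the factor needed for all myeloid cells), TTNNGNAA (C/EBP sites, bound by the factors that drive granulocyte genes) and TGTGGT (RUNX).
Fpr1: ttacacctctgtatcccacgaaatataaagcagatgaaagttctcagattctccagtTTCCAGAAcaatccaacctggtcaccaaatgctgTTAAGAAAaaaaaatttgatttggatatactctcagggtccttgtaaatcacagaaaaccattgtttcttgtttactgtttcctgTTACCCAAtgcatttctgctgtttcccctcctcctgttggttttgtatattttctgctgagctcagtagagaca
Fpr2: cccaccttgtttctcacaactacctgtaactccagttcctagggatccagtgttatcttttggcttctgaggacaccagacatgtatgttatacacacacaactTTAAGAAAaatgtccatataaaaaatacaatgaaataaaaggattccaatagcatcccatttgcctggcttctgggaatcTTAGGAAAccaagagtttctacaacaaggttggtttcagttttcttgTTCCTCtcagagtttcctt
Ltb4r1: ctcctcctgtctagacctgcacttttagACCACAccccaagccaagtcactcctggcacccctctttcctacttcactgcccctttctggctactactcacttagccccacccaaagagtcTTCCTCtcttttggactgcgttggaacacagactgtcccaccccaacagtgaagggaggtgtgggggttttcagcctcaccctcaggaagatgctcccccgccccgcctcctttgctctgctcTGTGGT
The Fpr1 window held 3 matches to TTNNGNAA and none to the others. The Fpr2 window held 2 matches to TTNNGNAA and 1 to GAGGAA, the last 19 bases before the start. The Ltb4r1 window held 2 matches to TGTGGT, 1 to GAGGAA and none to TTNNGNAA. Of the windows not printed, that of C5ar1, a gene not called between ProNeut and PreNeut, held 1 match to TTNNGNAA and 1 to TGTGGT. The Ptafr window held 1 match to GAGGAA, and that of C3ar1 held none. Whether the matches go with the differences was not tested. Of 32851 windows of this length before RefSeq starts, 36.8% held TTNNGNAA, 23.3% GAGGAA and 14.0% TGTGGT. A match is a run of letters and not a measured binding site.

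By depth there were 2 sets of libraries, and each group lay wholly in 1 of them. The 9 CMP, CD115plusGMP and Neutrophil libraries held 810794 to 1444403 reads and are called the shallow set; the 6 PreNeut and ProNeut libraries held 7493694 to 68171606 and are called the deep set. Identifiers without a gene symbol took 55.6 to 69.5% of the reads in the shallow set and 0.102 to 0.146% in the deep set. Of the reads on mitochondrial genes, 69.1 to 93.3% in the shallow set and 0.154 to 0.230% in the deep set fell on ND6, the coding gene of the opposite mitochondrial strand. The strand setting of the counting is not given in the sources used here, and whether it was the same in both sets was not tested. What part of the receptor RNA the reads of the 9 shallow libraries stand for is therefore not known, and every level, 0 and fold given for CMP, CD115plusGMP and Neutrophil carries this limit. A library with 0 reads of a gene is listed at a log2 CPM between -1.31 and 0.63 in the shallow set and between -8.14 and -4.90 in the deep set. Set and group cannot be told apart, so no test was run across sets and levels are given side by side. CPM here follows the library size behind the deposited values, which differs from the read total. The read total was 0.446 to 0.483 times that size in PreNeut and 0.475 to 0.518 times in ProNeut. In Neutrophil it was 2.24 to 3.93 times that size, in CD115plusGMP 1.54 to 1.75 and in CMP 1.10 to 1.16. Equal CPM in the 2 sets therefore does not mean an equal share of the reads. A list of 10 markers of mature neutrophils, with S100a8, S100a9, Ly6g, Mmp8 and Cxcr2 among them, was summed. The sums were 9546 to 32570 CPM in Neutrophil, 24945 to 38027 in PreNeut and 37157 to 52074 in ProNeut. They were 22.6 to 76.7 in CD115plusGMP, where Mmp9 had 0 reads, and 32.2 to 34.7 in CMP, where Ly6g and Mmp9 had 0. In bulk libraries, fewer cells of a type and less RNA per cell cannot be told apart.

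ProNeut and PreNeut are the 2 populations in which the receptors were best measured. Both formyl peptide receptor genes were higher in ProNeut: Fpr1, the high-affinity receptor for bacterial formyl peptides, by 4.78 on the log2 scale, and Fpr2, which also binds annexin A1, cathelicidin and serum amyloid A peptides, by 2.10. C5ar1, Ltb4r1 and Ptafr did not pass the test, with differences of 0.92, 0.25 and 0.53. So 2 of the 5 tested receptors were called higher and 0 lower, where 1.84% of the 14161 genes tested were called higher and 0.417% lower (limma, Benjamini-Hochberg adjusted p under 0.05 and a log2 difference of at least 1). The median difference was 0.92 over the 5 receptors and 0.07 over all genes tested. In 4 of the 5 every ProNeut library lay above every PreNeut library, as in 17.8% of all genes.

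**Figure D1:**
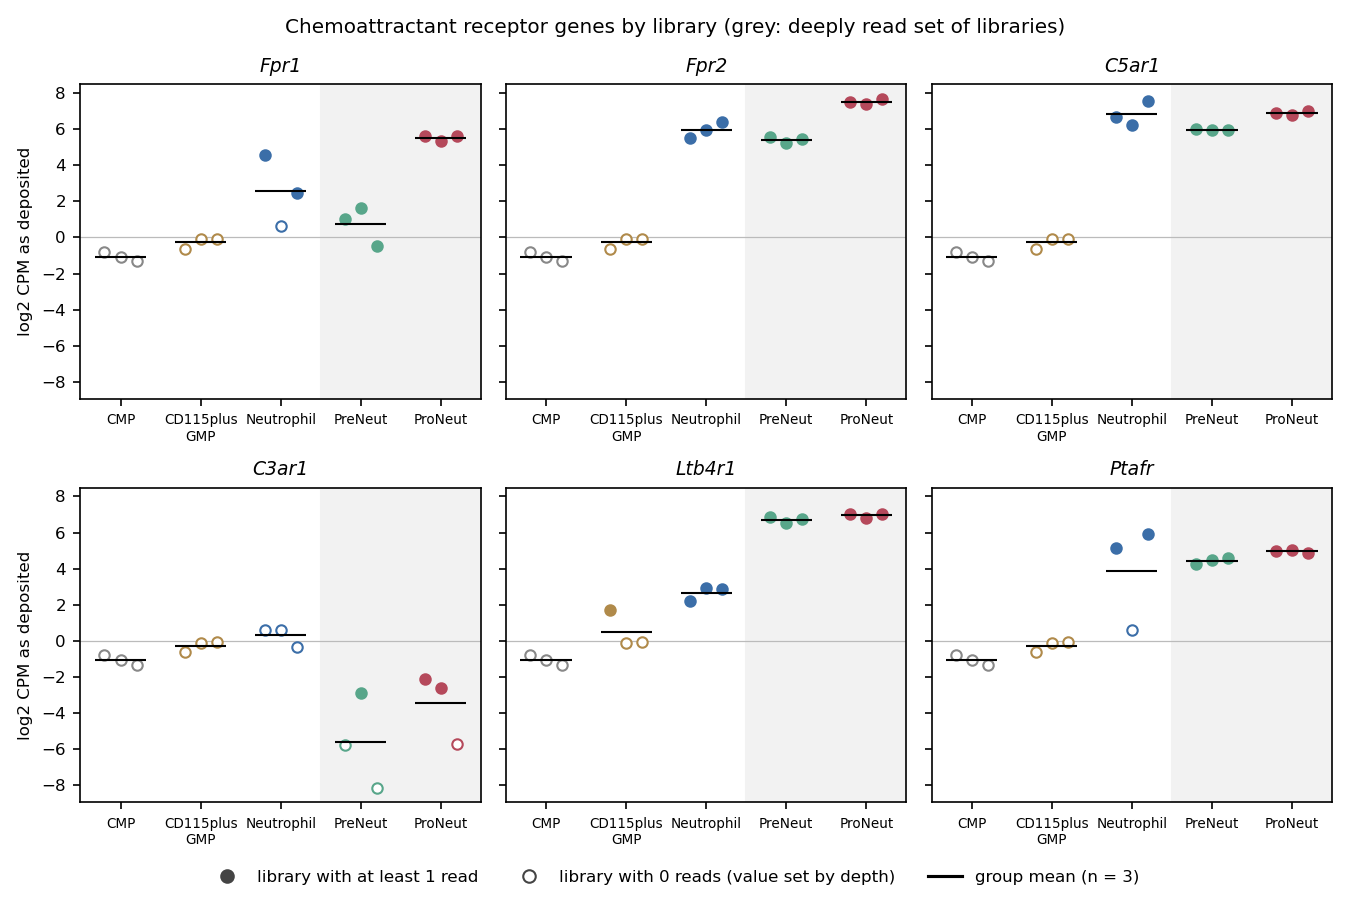
Deposited log2 CPM (y axis) of the 6 receptor genes in each of the 3 libraries of the 5 groups (x axis); filled points are libraries with at least 1 read, open points libraries with 0 reads, bars group means, and the grey field the deep set. CMP shows open points in all 6 panels, and Fpr1 shows the widest step from PreNeut (mean 0.74) to ProNeut (mean 5.52).

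Fpr1 had 55, 79 and 103 reads in PreNeut replicates 1 to 3, at a log2 CPM of 1.03, 1.65 and -0.45. In ProNeut it had 733, 833 and 1290 reads, at 5.62, 5.31 and 5.64. The groups did not overlap, and the spread was wider in PreNeut (mean 0.74 ± 1.08, SD, n = 3) than in ProNeut (5.52 ± 0.18, SD, n = 3). The lowest value came from PreNeut replicate 3, the deepest library. The difference of 4.78 ± 0.77 (SE) had an adjusted p of 0.0031 with limma and ranked 63 of the 14161 genes tested. Without PreNeut replicate 3 it was 4.18, with an adjusted p of 0.015 (3.1e-10 to 0.027 over all 15 fits, the reported one among them, of which 2 change both the libraries fitted and a second choice).

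Fpr2 had 1267, 960 and 6177 reads in PreNeut, at a log2 CPM of 5.55, 5.24 and 5.45. In ProNeut it had 2666, 3519 and 5285 reads, at 7.48, 7.39 and 7.68. The groups were about 2 units apart, with an SD of 0.16 in PreNeut and 0.15 in ProNeut (n = 3 each). The difference of 2.10 ± 0.41 (SE) had an adjusted p of 0.0095 with limma. Leaving out ProNeut replicate 3 ended the call, with a difference of 2.02 and an adjusted p of 0.056, the highest over all 15 fits (lowest 3.2e-13), and quantile normalization raised the difference to 3.42.

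C5ar1 encodes the receptor for the complement fragment C5a, among the strongest neutrophil attractants. Its log2 CPM was 6.02, 5.93 and 5.97 in PreNeut (1761, 1543 and 8842 reads) and 6.90, 6.76 and 7.02 in ProNeut (1789, 2277 and 3348 reads). Every ProNeut library was above every PreNeut library. The difference of 0.92 ± 0.42 (SE; 95% interval 0.02 to 1.82) was not called, with an adjusted p of 0.41 in the limma fit that takes one spread from all 15 libraries. With the spread of these 6 libraries alone, the adjusted p was 9.9e-07 and the interval 0.74 to 1.10, which reaches past 1 unit; over all 15 fits the adjusted p ran from 2.5e-08 to 0.81. Quantile normalization gave 1.55, with an adjusted p of 0.12.

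C5ar2, the second C5a receptor, which does not signal through G proteins, lies beside C5ar1 and was read as a neighbour. It had a mean log2 CPM of 4.32 ± 0.19 in PreNeut and 4.62 ± 0.09 in ProNeut (SD, n = 3 each), and the groups overlapped. Its difference of 0.30 ± 0.96 (SE) had a limma adjusted p of 1.0. C3ar1, the receptor for C3a, was at or near 0 throughout: 0, 3 and 0 reads in PreNeut, 3, 3 and 0 in ProNeut and 0 in all 9 shallow libraries. The 0 of PreNeut replicate 3, the deepest library, allows at most 0.0212 CPM (3 reads). Over the group, the 3 reads in PreNeut correspond to 0.0155 CPM and the 6 in ProNeut to 0.0971 CPM, a ratio of 6.27 (95% counting interval 1.34 to 38.8). Intervals and floors from reads cover counting error only, and the spread between libraries (0 to 3 reads in each group) allows no direction.

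Ltb4r1 encodes BLT1, the high-affinity leukotriene B4 receptor. Its log2 CPM was 6.85, 6.52 and 6.76 in PreNeut (3131, 2323 and 15308 reads) and 7.02, 6.83 and 7.02 in ProNeut (1944, 2378 and 3362 reads). The groups overlapped. The difference of 0.25 ± 0.50 (SE; 95% interval -0.81 to 1.31) was not called, with a limma adjusted p of 1.0. The interval from these 6 libraries alone was 0.05 to 0.45, with an adjusted p of 0.078, and over all 15 fits the adjusted p ran from 0.014 to 1.0. Ltb4r2, the low-affinity receptor for leukotriene B4, had 2, 0 and 0 reads in PreNeut and 6, 2 and 1 in ProNeut, so almost all leukotriene B4 receptor reads of the deep set were on Ltb4r1.

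Ptafr encodes the receptor for platelet-activating factor. It lay at a log2 CPM of 4.25, 4.5 and 4.58 in PreNeut (516, 573 and 3389 reads) and 5.0, 5.05 and 4.88 in ProNeut (477, 696 and 760 reads). ProNeut was above PreNeut in every library, but by less than 1 unit. The difference of 0.53 ± 0.93 (SE; 95% interval -1.43 to 2.49) had a limma adjusted p of 1.0. With the spread of these 6 libraries alone the adjusted p was 0.0024 and the interval 0.30 to 0.77; over all 15 fits it ran from 0.0011 to 1.0.

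**Figure D2:**
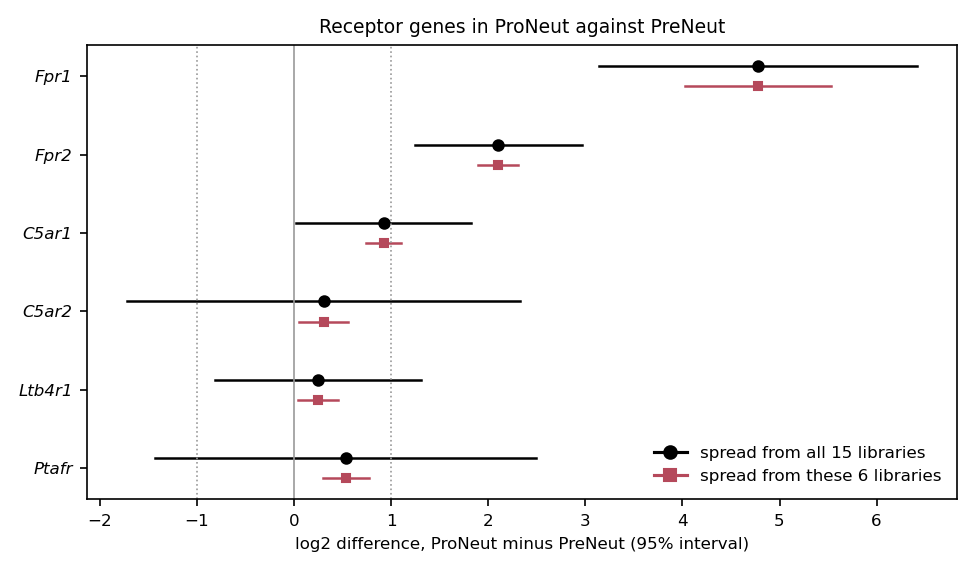
Log2 difference of ProNeut minus PreNeut (x axis) with its 95% interval for 5 receptor genes and C5ar2 (y axis); black points use the spread of all 15 libraries, red squares that of these 6 libraries, and dotted lines mark 1 unit. Only the intervals of Fpr1 and Fpr2 lie above 1 unit, and the red interval of C5ar1 (0.74 to 1.10) lies across it.

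Ratios between receptors within a library do not depend on library size. In PreNeut, Ltb4r1 took 42.4 to 46.5% of the reads on the 6 genes, C5ar1 26.1 to 28.2%, Fpr2 17.5 to 18.8%, Ptafr 7.67 to 10.5% and Fpr1 0.305 to 1.44%. In ProNeut, Fpr2 took 35.0 to 37.6%, Ltb4r1 23.9 to 25.5%, C5ar1 23.5 to 23.8%, Fpr1 8.58 to 9.63% and Ptafr 5.41 to 7.17%. The leading receptor by reads was thus Ltb4r1 in all 3 PreNeut libraries and Fpr2 in all 3 ProNeut libraries. Per kilobase of exon the order of mean log2 levels was Ltb4r1 (6.23), Fpr2 (5.04), C5ar1 (4.61), Ptafr (2.58) and Fpr1 (0.34) in PreNeut, and Fpr2 (7.14), Ltb4r1 (6.48), C5ar1 (5.53), Fpr1 (5.12) and Ptafr (3.11) in ProNeut. The 6 genes together summed to 216 to 248 CPM in PreNeut and 463 to 543 CPM in ProNeut.

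The reads of Fpr2 were 12.2 to 60.0 times those of Fpr1 in PreNeut and 3.64 to 4.22 times in ProNeut. The log2 ratio of Fpr1 to Fpr2 was -4.68 ± 1.16 in PreNeut and -1.99 ± 0.11 in ProNeut (SD, n = 3 each; exact permutation test, 2-sided, p = 0.1). The log2 ratio of Fpr2 to Ltb4r1 was -1.30 ± 0.02 in PreNeut and 0.56 ± 0.10 in ProNeut, and that of Fpr2 to C5ar1 -0.56 ± 0.11 and 0.62 ± 0.04 (SD, n = 3 each). C5ar1 had 2.69 to 3.56 times the reads of C5ar2 in PreNeut and 4.23 to 5.25 times in ProNeut. In all 5 ratios computed, Fpr1 to C5ar1 included, the groups did not overlap, and each exact permutation p was 0.1 before and after Benjamini-Hochberg adjustment, which is the smallest that 3 libraries against 3 allow and does not pass 0.05.

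**Figure D3:**
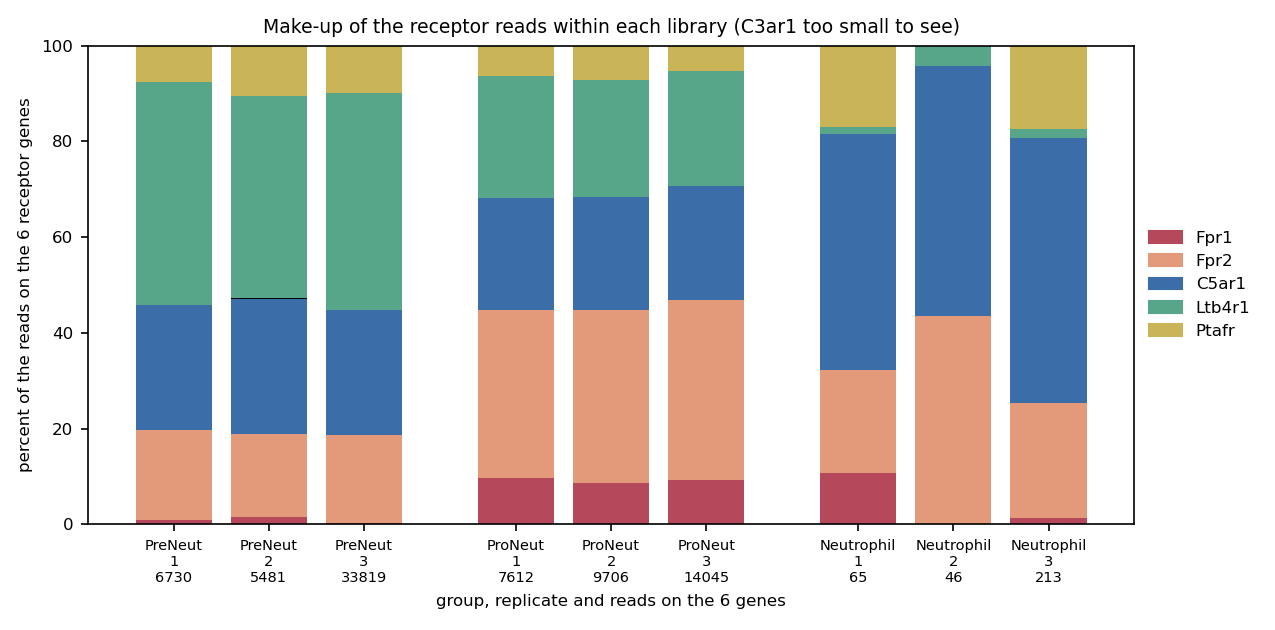
Share of each gene (colours) in the reads on the 6 receptor genes (y axis, percent) in the PreNeut, ProNeut and Neutrophil libraries (x axis, with replicate and reads on the 6 genes). Ltb4r1 is the widest band in PreNeut and Fpr2 in ProNeut, while C5ar1 holds 49.2 to 55.4% in Neutrophil, where the bands rest on 46 to 213 reads.

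Other markers moved with this comparison. All 5 measured primary granule genes of early neutrophils, Elane and Mpo among them, were called lower in ProNeut, where they summed to 52.3 to 138 CPM against 1038 to 1239 in PreNeut. Of 10 mature neutrophil markers 4 were called higher. Of 9 erythroid markers 5 were called higher, with sums of 48.4 to 53.9 against 2.48 to 6.63 CPM, and 4 of 5 basophil and mast cell markers were called lower, with sums of 2.28 to 2.51 against 27.3 to 31.4 CPM. T and NK cell markers summed to 3.21 to 5.24 against 21.6 to 29.3 CPM, with 1 of 2 called higher and 1 lower. Of 12 monocyte and macrophage markers limma called 0, with 1 at an unadjusted p under 0.05 and Irf8 called by limma and by limma voom on these 6 libraries alone; their sums were 291 to 349 in ProNeut and 303 to 343 CPM in PreNeut. The part of these markers in the receptor differences was not tested.

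The genes that make the ligands, carry the signal or silence the receptors were counted from fixed lists in the same comparison. Of 20 genes of receptor-proximal signalling (G protein subunits, phospholipase C, phosphoinositide 3-kinase and Src family kinases) limma called 0. At an unadjusted p under 0.05 there were 2, and the 2 called on these 6 libraries alone, by limma and by limma voom, were Gng2 and Prex1. Gng2, a G protein gamma subunit, differed by 2.0 ± 0.55 (SE; adjusted p 0.081), and Prex1, a Rac exchange factor driven by beta-gamma subunits, by 1.08 ± 0.50 (adjusted p 0.42). Of 11 genes of receptor desensitization (receptor kinases, arrestins and regulators of G protein signalling), 0 were called by either tool and 0 had an unadjusted p under 0.05. Their median difference was 0.26, as was that of the signalling genes, against 0.07 over all genes.

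Of 18 ligand and ligand enzyme genes 1 was called higher and 0 lower, with 4 at an unadjusted p under 0.05. It was Pla2g7, the plasma form of the enzyme that inactivates platelet-activating factor, at a mean log2 CPM of 2.09 ± 0.43 in ProNeut and -0.24 ± 0.76 in PreNeut (SD, n = 3 each), a difference of 2.33 ± 0.55 (SE; limma adjusted p 0.034). On these 6 libraries alone, limma and limma voom called Pla2g7 and Hc, which encodes C5, the precursor of C5a; Hc had 73 reads in ProNeut and 28 in PreNeut and differed by 2.99 ± 1.26 in the reported fit (SE; adjusted p 0.34). Of 8 complement receptors and regulators Cd55, which breaks up complement convertases on the cell surface, was called higher, by 2.71 ± 0.68 (SE; limma adjusted p 0.047). Of 14 close relatives of the receptors 5 were in the table, and limma called 0, with 1 (Ltb4r2) at an unadjusted p under 0.05 and 0 called by limma voom. Counts of 0 to 1 in lists of this size are read against the 1.84% of all genes called higher.

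**Figure D4:**
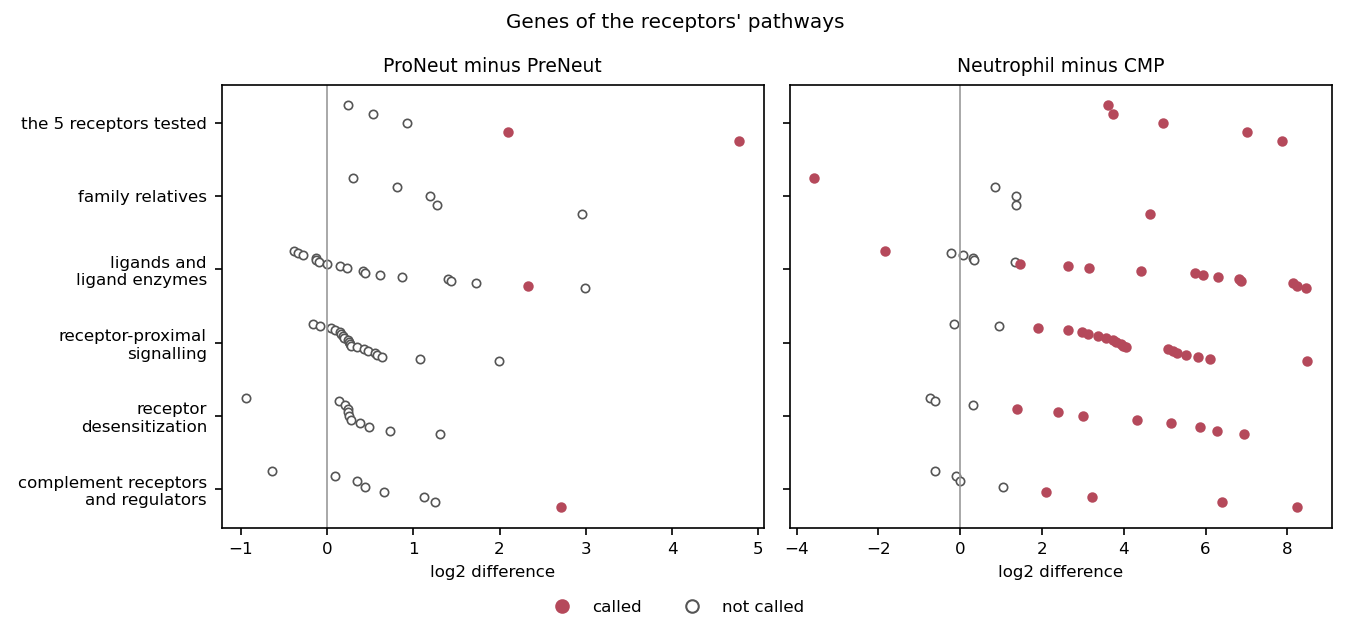
Log2 differences (x axis) of ProNeut minus PreNeut (left) and Neutrophil minus CMP (right) for the 5 tested receptors and the tested genes of 5 lists (y axis); filled points were called, open points were not. At left 4 points are filled (Fpr1, Fpr2, Pla2g7 and Cd55), while at right most points of the signalling list are. A gene with 0 reads in CMP is plotted at right at its fitted value, which depends on depth and scaling.

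Neutrophil was compared with the 2 progenitors of the shallow set, in which the receptors rested on few reads. C5ar1 had 32, 24 and 118 reads in Neutrophil replicates 1 to 3 (log2 CPM 6.65, 6.23 and 7.57), and Fpr2 had 14, 20 and 51 (5.49, 5.97 and 6.37). Ptafr had 11, 0 and 37 reads (5.15, 0.62 and 5.91), and Fpr1 7, 0 and 3 (4.54, 0.62 and 2.49). Ltb4r1 had 1, 2 and 4 reads (2.21, 2.94 and 2.85). Replicate 2 therefore had no read of Ptafr or Fpr1, which allows up to 9.19 CPM at 3 reads, and it had none of C5ar2, which had 30 and 7 in replicates 1 and 3. CMP and CD115plusGMP had 0 reads of all 6 genes in every library, other than 2 reads of Ltb4r1 in CD115plusGMP replicate 1.

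All 5 tested receptors were called higher in Neutrophil than in CMP and 0 lower, where limma called 26.8% of all genes tested higher and 17.1% lower. Of the genes tested, 884 had 0 reads in both groups. Folds were bounded against the floor of 3 reads over the 3 CMP libraries, and the bound depends on the scaling. The bounds take the pooled Neutrophil reads as exact, so counting error and spread in Neutrophil can place the true fold below them. The library size behind the deposited values is 2.24 to 3.93 times smaller than the read total in Neutrophil and 1.10 to 1.16 times smaller in CMP. Per total reads, C5ar1 was at least 58-fold higher, Fpr2 at least 28.3-fold, Ptafr at least 16-fold, Fpr1 at least 3.33-fold and Ltb4r1 at least 2.33-fold. In the deposited scaling the same bounds were 144, 70.4, 39.7, 8.28 and 5.80. For Ptafr the bound of 39.7 lay above the fitted fold of 31.0. Single libraries carried much of some bounds. Without Neutrophil replicate 3, the deposited-scale bound was 90.9 for C5ar1 and 17.9 for Ptafr, and without replicate 1 that of Fpr1 was 3.33. Without 1 Neutrophil library, the lowest bound per total reads was 30.7 for C5ar1, 18.6 for Fpr2 and 6.03 for Ptafr. It was 1.64 for Ltb4r1 and 1.33 for Fpr1. C5ar2 was at least 12.3-fold higher per total reads and 30.6-fold in the deposited scaling, but 7.76-fold without replicate 1, which held 30 of its 37 reads. The fitted log2 differences ran from 3.61 ± 0.77 for Fpr1 (adjusted p 0.0012) to 7.88 ± 0.42 for C5ar1 (SE; limma adjusted p 7.3e-10). With a prior of 2 reads in place of 0.5, which shrinks low values, they ran from 2.43 for Ltb4r1 to 5.93 for C5ar1, with 5.10 in place of 7.0 for Fpr2, and all 5 were still called. The median in the reported fit was 4.95, or 5.31 with each gene at its bound, against 0.60 over all genes; median centring moved the latter to 1.60 and quantile normalization to -0.03, and all 5 were called under both. A gene with 0 reads in both groups differs by 1.37 in the deposited values through depth and scaling alone. The receptors had 0 reads in CMP, so the spread of their CMP values is also that of depth and scaling. That spread enters the SE and p-values given here. Leaving out Neutrophil replicate 2 raised the difference of Ptafr to 6.59 and that of Fpr1 to 4.57, while leaving out replicate 3 lowered that of Ptafr to 3.95 and leaving out replicate 1 that of Fpr1 to 2.61.

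Neutrophil was set against CD115plusGMP as well, a comparison that shares the Neutrophil libraries with the one before. All 5 tested receptors were called higher and 0 lower, where 20.2% of all genes were called higher and 13.2% lower. The bounds again take the pooled Neutrophil reads as exact. The receptors other than Ltb4r1 had 0 reads in CD115plusGMP, so the spread of their values there is that of depth and scaling. Per total reads, C5ar1 was at least 49.1-fold higher, Fpr2 at least 24.0-fold, Ptafr at least 13.6-fold and Fpr1 at least 2.82-fold. In the deposited scaling these bounds were 83.1, 40.6, 22.9 and 4.78. Without Neutrophil replicate 3 those of C5ar1 and Ptafr were 52.5 and 10.3, and that of Fpr1 without replicate 1 was 1.92. Per total reads, the lowest without 1 Neutrophil library was 26.0 for C5ar1, 15.8 for Fpr2, 5.11 for Ptafr and 1.13 for Fpr1. For Ltb4r1, with 7 reads against 2, the ratio of reads in the deposited scaling was 5.01 (95% counting interval 0.955 to 49.5). Its ratio per total reads is not given. The fitted difference of Ltb4r1, 2.15 ± 0.50 (SE), nonetheless had a limma adjusted p of 0.0029 (0.00019 to 0.050 over all 15 fits). Without Neutrophil replicate 1, the difference of Fpr1 fell from 2.81 to 1.81, with an adjusted p of 0.048 (0.00049 to 0.048 without 1 library).

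In CD115plusGMP against CMP, limma called 1 of the 5 receptors higher and 0 lower, where 8.08% of all genes were called higher and 4.56% lower. The call was Ltb4r1, on 2 reads against 0, with a fitted difference of 1.58 ± 0.50 (SE; adjusted p 0.049, and 0.016 to 0.25 over all 15 fits). Leaving out any CMP library, or CD115plusGMP replicate 1 (difference 0.98), ended the call. Both groups are under the floor of 3 reads, so no fold is given. The 4 other receptors, with 0 reads in all 6 libraries, have a fitted difference of 0.80 from depth and scaling alone. The low-affinity receptor gene Ltb4r2 had 6, 2 and 5 reads in CD115plusGMP against 0, 0 and 1 in CMP and was called higher. The difference was 3.43 ± 1.01 (SE), with a limma adjusted p of 0.033. In the deposited scaling the ratio of reads was 22.5 (95% counting interval 3.39 to 958). This ratio rests on 1 read in CMP, which is under the floor of 3 reads.

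The genes around the receptors were called in larger numbers in Neutrophil than in CMP. Of the 20 signalling genes 18 were called higher and 0 lower, with a median difference of 3.87. The kinase gene Fgr had 274 reads in Neutrophil against 0 in CMP, Prex1 172 against 9 and Pik3r5, the regulatory subunit of phosphoinositide 3-kinase gamma, 82 against 1. Of the 11 desensitization genes 8 were called higher, with a median of 3.01; Arrb2, the arrestin that carries receptors into the cell, had 367 reads against 12. Of the 18 ligand genes 12 were called higher and 1 lower, with a median of 3.78 (3.70 with genes at 0 reads set to their bound). Those called higher included Camp, the cathelicidin precursor (860 reads against 4), Anxa1, annexin A1 (765 against 5), Pla2g7 (275 against 1) and C3 (259 against 4). Of 8 complement receptors and regulators 4 were called higher, among them Itgam and Itgb2, the chains of complement receptor 3, with 777 reads against 5 and 460 against 8. Of the 5 relatives C5ar2 was called higher and Ptgdr2, a prostaglandin D2 receptor, lower (13 reads against 256). These shares stand beside 26.8% of all genes called higher. Of 12 monocyte and macrophage markers 5 had 0 reads in Neutrophil, among them Ly86, Irf8, Ms4a6c and Fcgr1, and the 12 summed to 15.3 to 128 CPM there and 20.8 to 26.6 in CMP; B lymphoid markers summed to 43.3 to 88.8 against 0.947 to 6.44 CPM and erythroid markers to 0 to 9.61 against 411 to 537 CPM. Their part in the receptor levels was not tested.

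In CD115plusGMP against CMP, 8 of the 20 signalling genes, 5 of the 18 ligand genes, 3 of the 11 desensitization genes and 2 of the 8 complement genes were called higher, and Cd55 was called lower (0 reads against 23). Over all genes tested, 8.08% were called higher and 4.56% lower. Within the shallow set alone, limma called 6 signalling genes and 1 desensitization gene higher, and limma voom 4 and 2, with 1 complement gene. C3 had 114 reads against 4 and Cfp, properdin, 45 against 3, while C3ar1, the receptor for the C3a fragment, had 0 reads in both groups. Other markers moved as well: erythroid markers summed to 3.81 to 5.64 CPM in CD115plusGMP against 411 to 537 in CMP, monocyte and macrophage markers to 310.5 to 567 against 20.8 to 26.6, and primary granule genes to 382 to 804 against 3.47 to 11.4. Their part in these counts was not tested. Against CD115plusGMP, Neutrophil had 17 of 20 signalling, 10 of 18 ligand, 7 of 11 desensitization and 5 of 8 complement genes called higher. There 1 ligand gene (Cfb) and 1 complement gene (Cd93) were called lower, where 20.2% of all genes were called higher and 13.2% lower. On the shallow set alone, limma called 13, 9, 6 and 4 genes of these lists higher, and limma voom 17, 11, 7 and 4. Of the relatives, C5ar2 was called higher and Ptgdr2 lower in that comparison too. Ltb4r2, with 0 reads against 13, was not called (difference -2.59, limma adjusted p 0.059). On the shallow set alone it was called lower by limma (adjusted p 0.015) and by limma voom (adjusted p 0.0065).

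Set side by side and not compared, C5ar1 held 49.2 to 55.4% of the receptor reads in Neutrophil (65, 46 and 213 reads in all), Fpr2 21.5 to 43.5%, Ptafr 0 to 17.4%, Fpr1 0 to 10.8% and Ltb4r1 1.54 to 4.35%. The 6 genes summed to 141 to 341 CPM in that group in the deposited scaling. Per total reads this sum does not stand on the same scale as those of PreNeut and ProNeut. The Ltb4r1 share was 23.9 to 46.5% in the 6 deep libraries.

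Genes with the most similar pattern were ranked by Pearson's r over the libraries, as a description. Over the 6 deep libraries, the genes closest to Fpr1 among 6540 compared were Trem1 (r = 0.998), a receptor that amplifies neutrophil activation, Map4k4 (0.998) and Ube4a (0.997). For Ltb4r1 the closest was Hp (0.994), which encodes haptoglobin. Over all 15 libraries, with the mean of each set subtracted, the genes closest to Fpr2 among 4559 were Il1rn (0.994), the interleukin 1 receptor antagonist, Dhrs9 (0.993) and Mmp9 (0.992), gelatinase B. For C5ar1 they were Lpcat2 (0.999), which makes platelet-activating factor, Acpp (0.999) and Lrg1 (0.998), and for Ptafr Sirt7 (0.966), Adipor2 (0.964) and Oas2 (0.959). The number of genes with r of at least 0.9 was 609 for Fpr1, 525 for Fpr2, 653 for C5ar1, 184 for Ltb4r1 and 78 for Ptafr; the libraries share depth and the step between groups, which sets much of r. Among the receptors themselves r over the 6 deep libraries ran from 0.509 (Ltb4r1 with Ptafr) to 0.996 (Fpr2 with C5ar1).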

How the data were processed

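The authors deposited log2 CPM values of 14801 genes in 15 libraries. Per the labels' protocols, Nugen's Universal Plus mRNA-Seq kit was used. FastQC 0.11.7, featureCounts 1.22.2, edgeR 1.30.5 and the GRCm38 (mm10) build are named in the submitters' processing notes; for the aligner, annotation and strand setting, the answer is not given in the sources used here. In every library 100% of the deposited values come back as whole reads (tolerance 0.001 reads) once 2 is raised to the value, divided by the worth of 1 read, and 0.5 is taken off; these reads give counting intervals and shares.

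Groups came from the labels. Replicates differed by more than sampling noise (chi-square per degree of freedom 2.10 to 24.4 over 15 pairs). All 15 libraries entered 1 linear model of group means (R 4.3.3, limma 3.58.1 with the trend option of eBayes). A check on simulated normal values came first. It gave each gene 1 spread over all 15 libraries, with no depth difference between sets and no values at 0 reads. It therefore cannot show how the fit behaves under these. Genes with log2 CPM above 0 in at least 3 libraries were tested, 14161 in all. In Neutrophil replicates 1 and 2 a gene with 0 reads is listed at 0.63 and 0.62, so these libraries count toward the filter without a read. Tested genes with 0 reads in both groups numbered 884 for Neutrophil against CMP and 1428 for Neutrophil against CD115plusGMP. They numbered 686 for CD115plusGMP against CMP and 574 for ProNeut against PreNeut. The shares of all genes called include them in the total. A gene was called at a 2-sided Benjamini-Hochberg adjusted p under 0.05 and a log2 difference of at least 1. The 4 comparisons stay within a set of libraries.

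Bounds use a floor of 3 reads over a group and take the reads of the other group as exact. Shares need at least 10 reads on the 6 genes. Promoters came from RefSeq and gene models from GENCODE M21. All 6 receptors were named, with up to 4 genes per list and comparison (largest absolute difference, called ones first); other genes behind a count of 5 or fewer were chosen after their values were seen. The 3 genes most alike in pattern needed a mean log2 CPM of at least 3. Some genes that these rules name are not reported here. Members, lists and tests were chosen with earlier results of these data known. Alternatives were no filter, fits per set of libraries, replicate block, quantile normalization, median centring, a prior of 2 reads, leaving out each library and, added after the data were seen, limma voom on recovered reads within a set, the block within a set, and fold bounds per total reads or without a library.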

Additional observations from a re-analysis of the deposited data

How the results depend on the processing

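The receptor differences kept their direction under every alternative run. For the 4 receptors with 0 reads in CD115plusGMP and CMP, depth and scaling alone set the direction, and this shows nothing. The planned edgeR and DESeq2 tests were not run, because the deposited unit is log2; limma voom on recovered reads, chosen after seeing the data, stands in for them. The correlation of same-numbered deviations was 0.083, 0.054 and 0.145 between ProNeut and PreNeut, where differently numbered ones ran from -0.133 to 0.090. It was -0.053 to 0.072 in the other comparisons. These low correlations do not settle whether the replicate numbers pair the libraries. With the replicate block, 285 genes were called in place of 320, with a limma adjusted p of 0.0052 for Fpr1 and 0.019 for Fpr2.

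For ProNeut against PreNeut, 903 genes were called when these libraries were fitted alone, 1031 with the replicate block added to that fit, 1206 by limma voom on these libraries alone, 607 with a prior of 2 reads, 186 after median centring and 126 after quantile normalization; leaving out 1 library gave 195 to 405 genes (195 without ProNeut replicate 2, 197 without ProNeut replicate 1) and 1 to 2 receptors. Higher against lower calls were 261 and 59 in the fit reported, 79 and 47 after quantile normalization, 515 and 388 when fitted alone, 427 and 180 with a prior of 2 reads, and 765 and 441 by limma voom on these libraries alone. Without 1 library, the difference of Fpr2 was 2.02 to 2.17 (adjusted p 0.026 to 0.056).

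For CD115plusGMP against CMP, quantile normalization called 2689 genes in place of 1790 (1421 higher and 1268 lower, against 1144 and 646; 1291 and 302 after median centring, 1513 and 468 with a prior of 2 reads). The single receptor call, Ltb4r1, fell to 0 receptors without the filter (1.58, adjusted p 0.051), when fitted alone (1.58, adjusted p 0.20), with the replicate block (1.58, adjusted p 0.064; 1.58 and 0.25 when fitted alone), after quantile normalization (1.58, adjusted p 0.076) and by limma voom on the shallow set alone (1.47, adjusted p 0.16); without 1 library it was 0.98 to 1.88, with 0 to 1 receptors called. For Neutrophil against CD115plusGMP, Ltb4r1 was no longer called with the replicate block fitted alone (2.15, adjusted p 0.050). Higher and lower calls there were 2861 and 1865, against 2203 and 2704 after quantile normalization, 3758 and 1024 after median centring and 3290 and 1243 with a prior of 2 reads; for Neutrophil against CMP they were 3792 and 2420, against 3293 and 3636, 5534 and 1116, and 5457 and 1471 in the same order. Depth limits C3ar1 in the shallow set and Fpr1, Ltb4r1 and Ptafr in Neutrophil.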
